A study of Mus musculus with 4 samples.

Results

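Lungs bearing Lewis lung carcinoma (LLC) cancers were compared with cancer-free lungs, both from mice that received the salt solution HBSS and no S100A8. The comparison takes 2 of the 4 samples of the series, HBSS + LLC and HBSS + vehicle, and covers all 98 genes of an RT-qPCR panel together with its 2 housekeeping assays. Both groups were female C57BL/6J mice of 6 to 8 weeks. LLC is an established mouse lung cancer cell line of the same strain, and its cells were injected into the lung in Matrigel, whereas vehicle mice were injected with buffered saline in Matrigel. HBSS was given intranasally on Days 3, 6 and 9 and whole lungs were taken on Day 10, so that each sample mixes cancer cells, where present, with epithelium, stroma and leukocytes. In such a mixture, fewer cells of a type and less RNA per cell cannot be told apart.

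Each gene was measured as a threshold cycle (Ct), the amplification cycle at which its product becomes detectable, so a drop of 1 cycle means roughly 2-fold more template. The deposited value is the mean Ct of 4 to 5 mice. There is therefore 1 value per gene and group, no spread between mice and no test, and every difference below is a difference between 2 averaged values. Unless S100A8 is named, "without cancer" stands for HBSS + vehicle and "with it" for HBSS + LLC. Over the panel, the median Ct was 23.8 without cancer and 23.35 with it. More than 30 cycles, a level at which few molecules are detected, were needed for 20 genes in HBSS + vehicle and 13 in HBSS + LLC, of which 10 were the same genes. Markers of lung epithelium were detected in both groups, and *RAGE*, *AGER*, *CAV1*, *MUC1* and *CDH1* all lay between 16.1 and 22.4 cycles in HBSS + vehicle and between 14.95 and 17.97 in HBSS + LLC.

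A growing lung cancer is known to recruit myeloid cells and lymphocytes, to alter oxygen supply and redox balance, and to remodel matrix and cell contacts. The panel samples these processes through secreted mediators (cytokines, chemokines and growth factors), the enzymes that make or remove reactive oxygen and nitrogen species, the hypoxia-inducible factors, adhesion molecules and matrix proteins.

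The housekeeping assays moved in opposite directions between the groups. The first needed 14.1 cycles in HBSS + vehicle and 15.35 in HBSS + LLC, later by 1.26 cycles. The second needed 22.5 and 20.6 cycles, earlier by 1.94 cycles. Their mean changed by -0.34 cycles. Relative to this mean, 26 of the 98 genes (26.5%) exceeded 2-fold upwards in lungs with LLC cancers and 21 (21.4%) downwards, 47 in all (48%). With the first assay alone as reference 61 genes (62.2%) were higher and 4 (4.08%) lower, 65 in all (66.3%), and with the second alone 14 (14.3%) were higher and 62 (63.3%) lower, 76 in all (77.6%). Changing from the mean to either assay adds or subtracts 1.60 on the log2 scale for every gene, so a gene past 2-fold under all 3 references had to differ by more than 6.06-fold under the mean. By this criterion 14 genes (14.3%) were higher, 4 (4.08%) were lower, 18 in all (18.4%), and 80 were neither. A further 9 genes were above and 8 below under every reference without passing 2-fold each time, and 63 changed sign or reached 0 under a reference. The order of the genes, and the difference between any pair of them, is the same under every reference. The genes were put into 17 groups by role, with earlier results of these data known. In 5 groups the median kept its sign under all 3 references, all above 0. They were type 1 cytokines, regulatory mediators, peroxide and superoxide enzymes, L-arginine and nitric oxide genes, and the hypoxia-inducible factors with *VEGFα*. The median of each of the other 12 groups changed sign with 1 of the housekeeping assays alone.

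**Figure D1:**
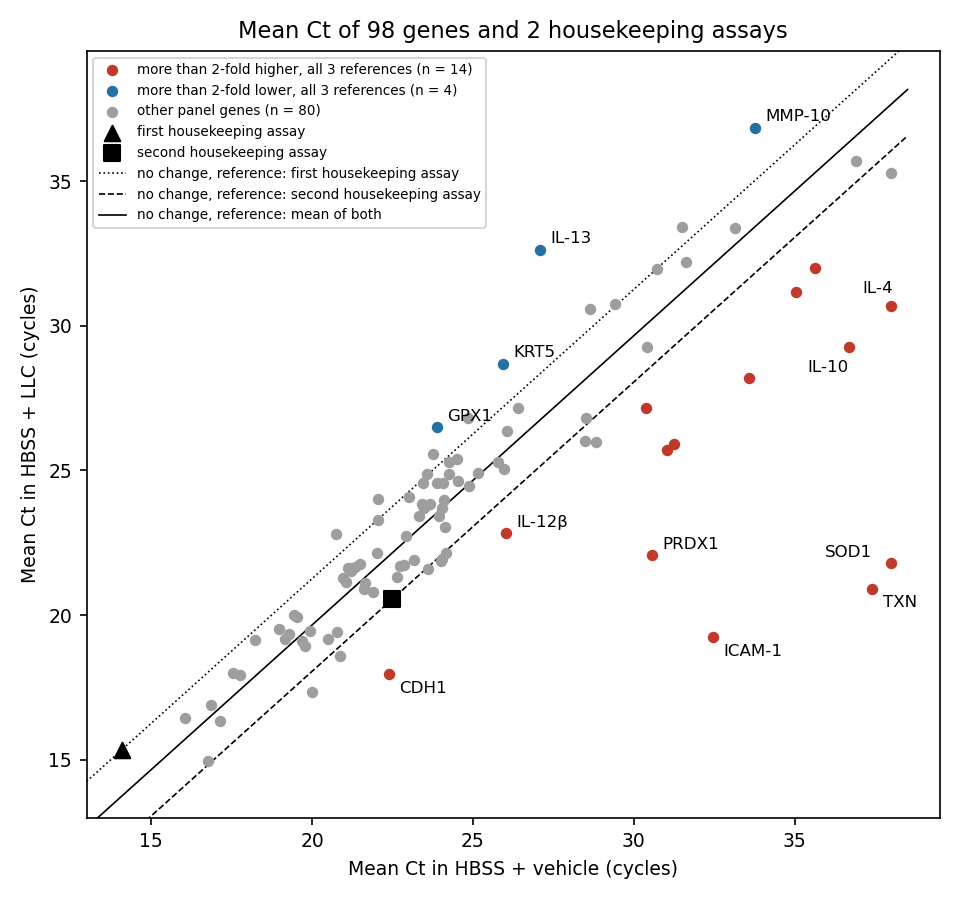
Mean Ct (cycles) of each of the 98 genes and 2 housekeeping assays in HBSS + vehicle (horizontal) and HBSS + LLC (vertical), 1 averaged value per group, with lines of no change for each reference. Most genes lie between the lines of the 2 housekeeping assays, while 14 genes in red lie below all 3 lines by more than 1 cycle and 4 in blue lie above them.

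Of the 14 genes higher under all 3 references, 12 needed more than 30 cycles in HBSS + vehicle. The other 2, *CDH1* and *IL-12β*, were below 30 cycles in both groups. Of the 4 lower genes, *GPX1* and *KRT5* were below 30 cycles in both groups, *IL-13* was so only in HBSS + vehicle, and *MMP-10* in neither. Fold changes below use the mean of the housekeeping assays unless another reference is named.

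Genes that make or remove superoxide and peroxide had the highest median of the 17 role groups. Superoxide dismutase turns superoxide into hydrogen peroxide, which catalase, glutathione peroxidase and the peroxiredoxins then reduce, the last with electrons from thioredoxin. Of the 6 genes in this group, 3 were higher and 1 was lower under all 3 references, beside 14.3% and 4.08% of the 98 genes, and the group median was 4.57 on the log2 scale against -0.185 for all 98 genes. Thioredoxin, *TXN* (mouse gene Txn1), needed 37.4 cycles in HBSS + vehicle and 20.9 in HBSS + LLC, 72717-fold higher or 16.15 on the log2 scale. *SOD1* stood at the cut off of 38 cycles without cancer and at 21.8 cycles with it, at least 15.85 higher. *PRDX1*, a peroxiredoxin, moved from 30.55 to 22.07 cycles, 8.14 higher. All 3 thus moved from above 30 cycles in cancer-free lungs to Ct values below the panel median in lungs with cancers. Values so close to the cut off carry little precision: with Ct values capped at 35, *TXN* was 13682-fold and *SOD1* 7383-fold higher.

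Glutathione peroxidase went the other way. *GPX1* needed 23.9 cycles without cancer and 26.5 with it, 7.89-fold lower, and was 2.60-fold lower even with the reference most favourable to an increase. The *SOD1* and *GPX1* differences were at least 18.83 apart on the log2 scale whatever the reference. *CAT*, the catalase assay, was exactly at 2-fold and so not counted, and *NOX2*, the phagocyte oxidase subunit that makes superoxide, was 1.62-fold higher.

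The promoters of 2 of these genes hold a sequence match to the antioxidant response element, the motif bound by the stress factor NRF2. They are shown because many antioxidant enzymes are known targets of that factor. The motif was searched as TGACNNNGC on both strands in the 250 bases before each RefSeq start (GRCm38.p6), and 10.2% of all 32851 such promoters hold it. *SOD1* and *PRDX1* have 1 match each, beginning 56 and 133 bases before the start and reading on the reverse strand. No match stood in the windows of *TXN* or *GPX1*, and those of *CAT* and *NOX2* were not examined singly. The matches are in capitals and are a description of sequence only. The *SOD1* promoter is chr16:90220512-90220761 and that of *PRDX1* chr4:116685349-116685598, both on the plus strand.
SOD1: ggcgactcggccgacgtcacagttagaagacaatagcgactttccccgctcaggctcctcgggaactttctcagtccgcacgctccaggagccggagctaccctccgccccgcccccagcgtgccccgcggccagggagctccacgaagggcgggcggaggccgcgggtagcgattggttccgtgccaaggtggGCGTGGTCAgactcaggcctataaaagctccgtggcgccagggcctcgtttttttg
PRDX1: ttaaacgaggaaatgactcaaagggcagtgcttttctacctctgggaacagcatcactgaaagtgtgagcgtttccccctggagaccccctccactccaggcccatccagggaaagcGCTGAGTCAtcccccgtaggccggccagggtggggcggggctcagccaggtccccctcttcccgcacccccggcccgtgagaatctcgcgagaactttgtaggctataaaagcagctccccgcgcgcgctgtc

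Genes of defence against metals and electrophiles split between closely related members. Metallothioneins are small cysteine-rich proteins that bind zinc and copper, and *MT1* and *MT2* are neighbouring paralogs. *MT2* needed 22.5 cycles in HBSS + vehicle and 20.5 in HBSS + LLC, 3.03-fold higher, while *MT1* needed 23.6 and 24.9 cycles, 3.16-fold lower. *MT2* came to 0 with the second housekeeping assay alone and *MT1* to -0.06 on the log2 scale with the first, but the gap between the 2 genes was 9.58-fold under any reference. *GSTM*, a glutathione transferase of unspecified family member, was 3.48-fold higher, and *HO-1*, which degrades heme, was 1.73-fold higher. Of the 4 genes, 2 passed 2-fold upwards and 1 downwards (26.5% and 21.4% over the panel), with none past it under all 3 references (18.4% over the panel).

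The metallothionein promoters are shown side by side for the same 250 bases, with the metal response element core, searched as TGCACNC or TGCGCNC on both strands, in capitals. Matches of this core occur in 21.4% of the 32851 promoters. *MT1* (chr8:94178839-94179088, plus strand) had 1 match, beginning 23 bases before the start. *MT2* (chr8:94172368-94172617, plus strand) had 3, beginning 223, 128 and 50 bases before it. Nothing about the binding of a factor follows from these letters. Bases outside the windows were not searched, so the counts of 1 and 3 do not compare the genes beyond them.
MT1: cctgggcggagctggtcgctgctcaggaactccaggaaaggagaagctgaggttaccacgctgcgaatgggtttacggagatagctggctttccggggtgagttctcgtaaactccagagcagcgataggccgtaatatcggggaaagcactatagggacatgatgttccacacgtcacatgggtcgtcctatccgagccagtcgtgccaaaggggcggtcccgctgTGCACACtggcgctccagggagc
MT2: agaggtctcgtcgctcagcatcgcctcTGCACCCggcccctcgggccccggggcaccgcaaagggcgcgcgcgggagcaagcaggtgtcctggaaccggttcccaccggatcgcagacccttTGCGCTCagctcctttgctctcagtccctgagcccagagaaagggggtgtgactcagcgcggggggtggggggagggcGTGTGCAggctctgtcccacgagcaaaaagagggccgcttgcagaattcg

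L-arginine is consumed by arginases and by the inducible nitric oxide synthase, and enters cells through transporters such as CAT2. *ARG1* needed 31.0 cycles without cancer and 25.7 with it, 31.6-fold higher. *CAT2* (Slc7a2) moved from 35.6 to 32.0 cycles, 9.65-fold higher, or 6.32-fold with Ct values capped at 35. Both passed 2-fold under all 3 references. The other arginase, *ARG2*, was 1.14-fold higher, and *iNOS* (Nos2) was 2.11-fold lower but 0.52 higher on the log2 scale with the first housekeeping assay alone. The difference in *ARG1* exceeded that in *ARG2* by 4.79 and that in *iNOS* by 6.06 on the log2 scale, free of any reference.

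**Figure D2:**
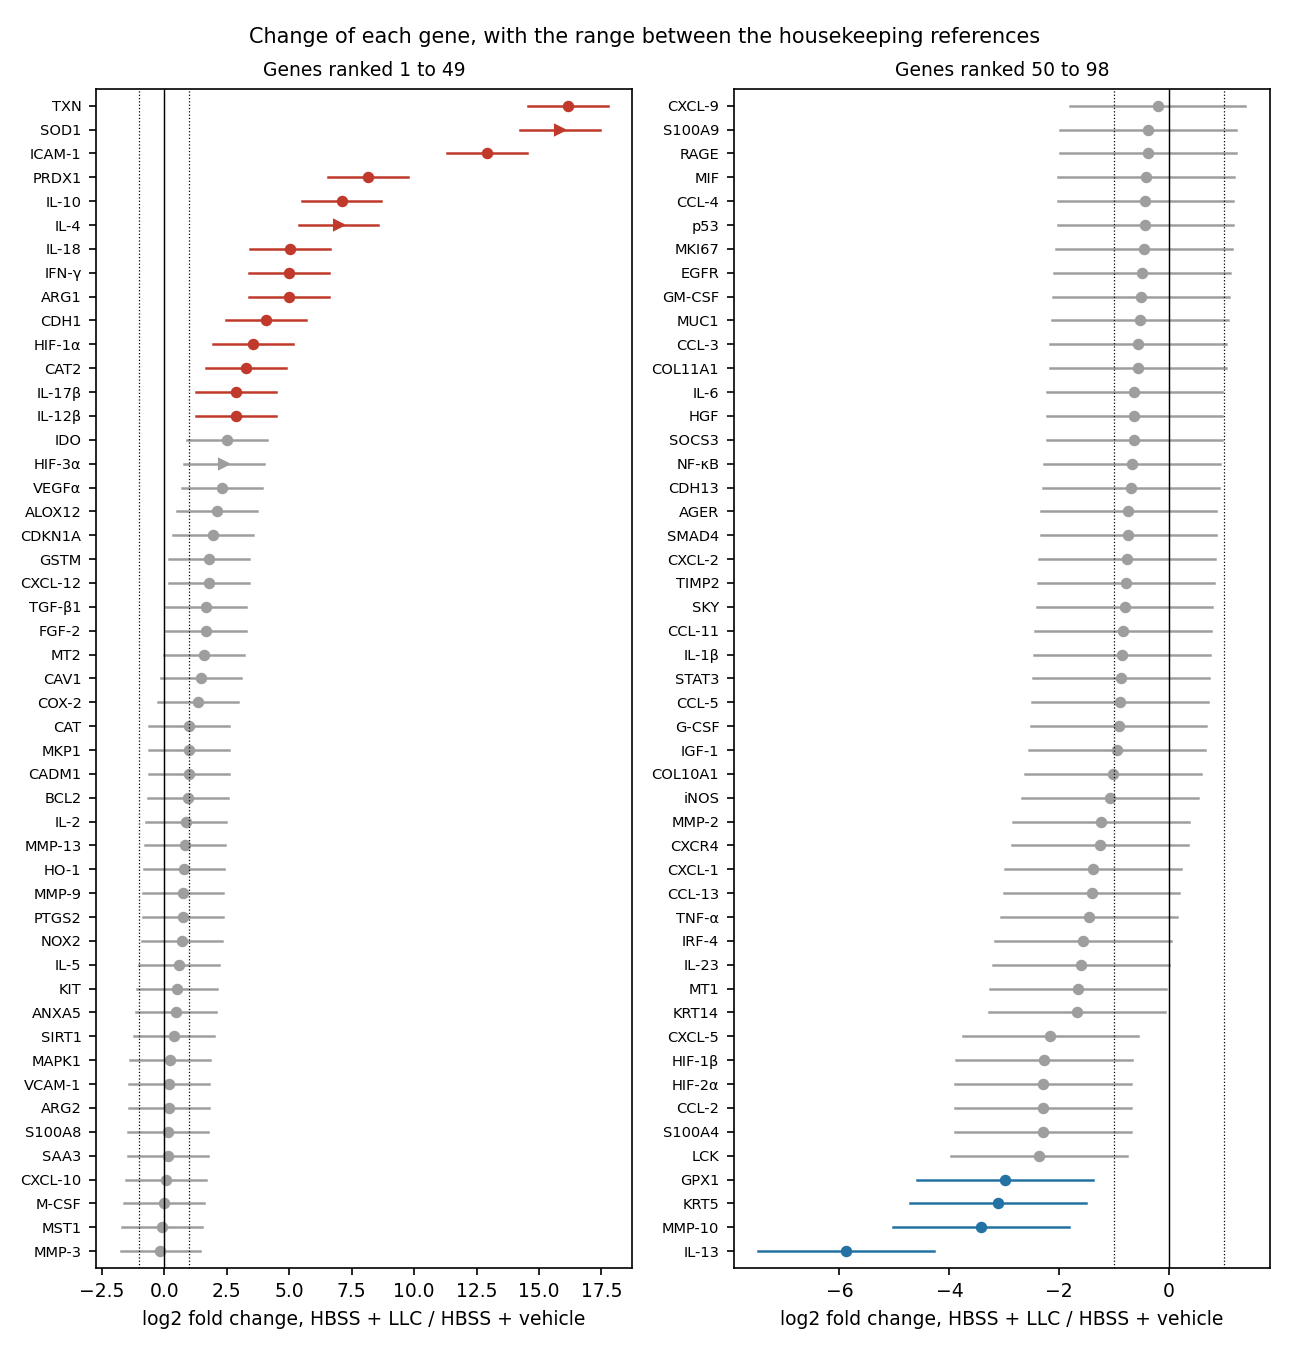
Log2 fold change (HBSS + LLC over HBSS + vehicle) of the 98 genes in order, with the mean of both housekeeping assays as reference (circles; triangles are lower bounds, where HBSS + vehicle was at 38 cycles). Lines run from the second to the first housekeeping assay alone, dotted lines mark 2-fold, and the 14 red and 4 blue genes stay past 2-fold along the whole line.

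Type 1 cytokines drive cytotoxic and macrophage responses: IL-12 and IL-18 induce IFN-γ in T cells and NK cells. Of the 4 in the panel, 3 were higher under all 3 references, beside 14.3% of the 98 genes, and the median was 3.925 on the log2 scale against -0.185 for the panel. *IFN-γ* needed 31.2 cycles without cancer and 25.9 with it, 31.8-fold higher. *IL-18* moved from 33.6 to 28.2 cycles, 32.4-fold higher. *IL-12β* (Il12b), the subunit that IL-12 shares with IL-23, moved from 26.0 to 22.8 cycles, 7.26-fold higher. *IL-2*, a growth factor of T cells, was above 35 cycles in both groups and 1.83-fold higher. *IL-23* moved apart from *IL-12β*, at 30.7 and 31.97 cycles and 3.03-fold lower, and reached 0 with the first housekeeping assay alone. The Ct of *IL-12β* fell and that of *IL-23* rose, which set them 4.46 apart on the log2 scale.

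Type 2 cytokines, which act on B cells, eosinophils and alternatively activated macrophages, moved in opposite directions. *IL-4* was at the cut off of 38 cycles in HBSS + vehicle and at 30.7 in HBSS + LLC, at least 125-fold higher, or 15.7-fold with Ct values capped at 35. *IL-13*, which shares a receptor chain with IL-4, needed 27.1 and 32.6 cycles and was 58.9-fold lower, the lowest of the 98 genes. *IL-5*, the eosinophil growth factor, was 1.48-fold higher at 25.96 and 25.05 cycles. Under every reference, *IL-4* and *IL-13* differed in their change by at least 12.85 on the log2 scale. These 3 genes therefore had no common direction.

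Regulatory mediators were all more than 2-fold higher with the mean reference, 3 of 3 beside 26.5% of the 98 genes. *IL-10*, which restrains macrophages and dendritic cells, needed 36.7 cycles without cancer and 29.25 with it, 136-fold higher, or 42.5-fold with Ct values capped at 35. *IDO*, the tryptophan-degrading enzyme, moved from 28.8 to 25.98 cycles, 5.70-fold higher, and *TGF-β1* from 24.2 to 22.15 cycles, 3.20-fold higher. Only *IL-10* among them passed 2-fold under all 3 references. *IDO* and *TGF-β1* stayed above 0 under each, at 0.91 and 0.08 on the log2 scale with the second housekeeping assay alone.

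Of 7 innate inflammatory cytokines, 1 passed 2-fold upwards and 2 downwards (26.5% and 21.4% over the panel), with a group median of -0.63 on the log2 scale against -0.185 for the panel. *IL-17β* (Il17b) was the only one more than 2-fold higher, moving from 30.4 to 27.2 cycles, 7.36-fold higher and past 2-fold under all 3 references. *TNF-α* was 2.75-fold lower, from 23.5 to 24.6 cycles, but 0.14 on the log2 scale with the first housekeeping assay alone, and *IL-23*, given above, was the other lower member. The remaining 4, *IL-1β*, *IL-6*, *MIF* and *SAA3*, lay between 0.551-fold and 1.09-fold. The 3 colony-stimulating factors, which expand granulocytes and macrophages, were within 2-fold, as were 51 of all 98 genes, and ranged from 0.529-fold for *G-CSF* to 0.979-fold for *M-CSF*.

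Chemokines guide leukocytes into tissue through receptors such as CXCR4. Of 12 chemokines and the receptor *CXCR4*, 11 lay below the panel median, as 49 of the 98 genes do, 5 were more than 2-fold lower and 1 was more than 2-fold higher (21.4% and 26.5% over the panel), with none past 2-fold under all 3 references. *CCL-2*, which recruits monocytes, needed 24.8 cycles without cancer and 26.8 with it, 4.92-fold lower. *CXCL-5*, a neutrophil attractant, moved from 23.75 to 25.6 cycles, 4.47-fold lower. Both stayed below 0 under every reference. *CXCL-1*, another neutrophil attractant, was 2.60-fold lower and *CCL-13* 2.66-fold lower, and both turned above 0 with the first housekeeping assay alone. *CXCL-12*, which retains cells that carry CXCR4, moved from 24.0 to 21.9 cycles, 3.41-fold higher, whereas *CXCR4* moved from 18.2 to 19.15 cycles, 2.39-fold lower. *CXCL-12* came to 0.17 on the log2 scale with the second housekeeping assay alone, and *CXCR4* turned to 0.34 with the first alone. The ligand and its receptor were 3.03 apart on the log2 scale under any reference. The remaining 7 chemokines lay between 0.540-fold and 1.06-fold.

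S100A8 and S100A9 are abundant proteins of neutrophils and monocytes that form a complex, and RAGE is a receptor of S100 proteins that is highly expressed on alveolar epithelium. *S100A8* was 1.11-fold higher at 19.9 and 19.45 cycles and *S100A9* 1.30-fold lower at 19.15 and 19.2 cycles. The assays *RAGE* and *AGER*, names of the same mouse gene, were 1.31-fold and 1.67-fold lower. *S100A4*, linked to cell motility, was the 1 gene of the 5 past 2-fold (48% over the panel), moving from 22.06 to 24.0 cycles, 4.92-fold lower, and it stayed below 0 under every reference.

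Hypoxia-inducible factors are pairs of an α subunit, which is stabilised at low oxygen, and the β subunit HIF-1β. All 4 subunits and *VEGFα*, a target of the factors that stimulates vessel growth, passed 2-fold with the mean reference, beside 48% of the 98 genes, and they did so in both directions. Of these 5, *HIF-1α* alone passed under all 3 references. With the second assay alone *VEGFα* and *HIF-3α* came to 0.72 and 0.79 on the log2 scale, and with the first alone *HIF-1β* and *HIF-2α* came to -0.67 and -0.69. *HIF-1α* needed 35.03 cycles without cancer and 31.15 with it, 11.6-fold higher. *HIF-3α* stood at 38 cycles and 35.3, at least 5.24-fold higher, although with Ct values capped at 35 its value became -0.34 on the log2 scale. *VEGFα*, at 19.99 and 17.3 cycles, was 4.99-fold higher. *HIF-1β* (Arnt) and *HIF-2α* (Epas1) were lower, the former at 31.5 and 33.4 cycles and 4.82-fold, the latter at 28.6 and 30.6 cycles and 4.89-fold. The 4 subunits all needed more than 30 cycles in HBSS + LLC. *HIF-1α* differed in its change from *HIF-1β* by 5.81 and from *HIF-2α* by 5.83 on the log2 scale.

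Eicosanoid enzymes turn arachidonic acid into prostaglandins and hydroxy fatty acids. *ALOX12*, a lipoxygenase, was 4.35-fold higher, from 28.5 to 26.0 cycles. Cyclooxygenase-2 was measured by 2 assays named for the same gene (Ptgs2). *COX-2* needed 28.5 and 26.8 cycles and was 2.57-fold higher (-0.24 on the log2 scale with the second housekeeping assay alone), and *PTGS2* needed 21.9 and 20.8 cycles and was 1.68-fold higher. The change seen by these assays differed by 0.61 on the log2 scale, and that between *RAGE* and *AGER* by 0.35. In the lungs given S100A8, described last, the difference with LLC was 1.51 higher on the log2 scale for *PTGS2* than for *COX-2*, or 2.85-fold.

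Adhesion molecules were led by *ICAM-1*, the leukocyte ligand on endothelium and epithelium, at 32.5 cycles in HBSS + vehicle and 19.2 in HBSS + LLC, 7643-fold higher. In the cancer-free lungs given S100A8 it needed 21.03 cycles. *VCAM-1*, with a related role, needed 21.6 and 21.1 cycles and was 1.15-fold higher. The changes of these genes differed by 12.70 on the log2 scale. *CDH1*, E-cadherin of epithelial junctions, moved from 22.4 to 17.97 cycles, 16.8-fold higher, and passed 2-fold under all 3 references as did *ICAM-1*. *CDH13*, a cadherin of endothelium and muscle, was 1.61-fold lower. *CAV1*, the coat protein of caveolae, was 2.77-fold higher at 16.8 and 14.95 cycles, but reached -0.13 on the log2 scale with the second housekeeping assay alone. *CADM1* and *MUC1* were within 2-fold.

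Matrix proteins and keratins were lower or within 2-fold, with 5 of 10 more than 2-fold lower and none more than 2-fold higher under the mean reference (21.4% and 26.5% over the panel). *KRT5*, a keratin of airway basal cells, needed 25.9 cycles without cancer and 28.7 with it, 8.63-fold lower and past 2-fold under all 3 references. Its partner *KRT14* moved from 29.4 to 30.75 cycles, 3.20-fold lower. *MMP-10*, a stromelysin, moved from 33.8 to 36.8 cycles, 10.7-fold lower, a value that became 2.99-fold when Ct values were capped at 35. With that cap *MMP-10* no longer passed 2-fold under all 3 references. *MMP-2*, a gelatinase, was 2.36-fold lower and *COL10A1*, a cartilage collagen, 2.03-fold lower, and both turned above 0 with the first housekeeping assay alone. The other 5, among them *MMP-9* and *TIMP2*, lay between 0.582-fold and 1.77-fold.

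**Figure D3:**
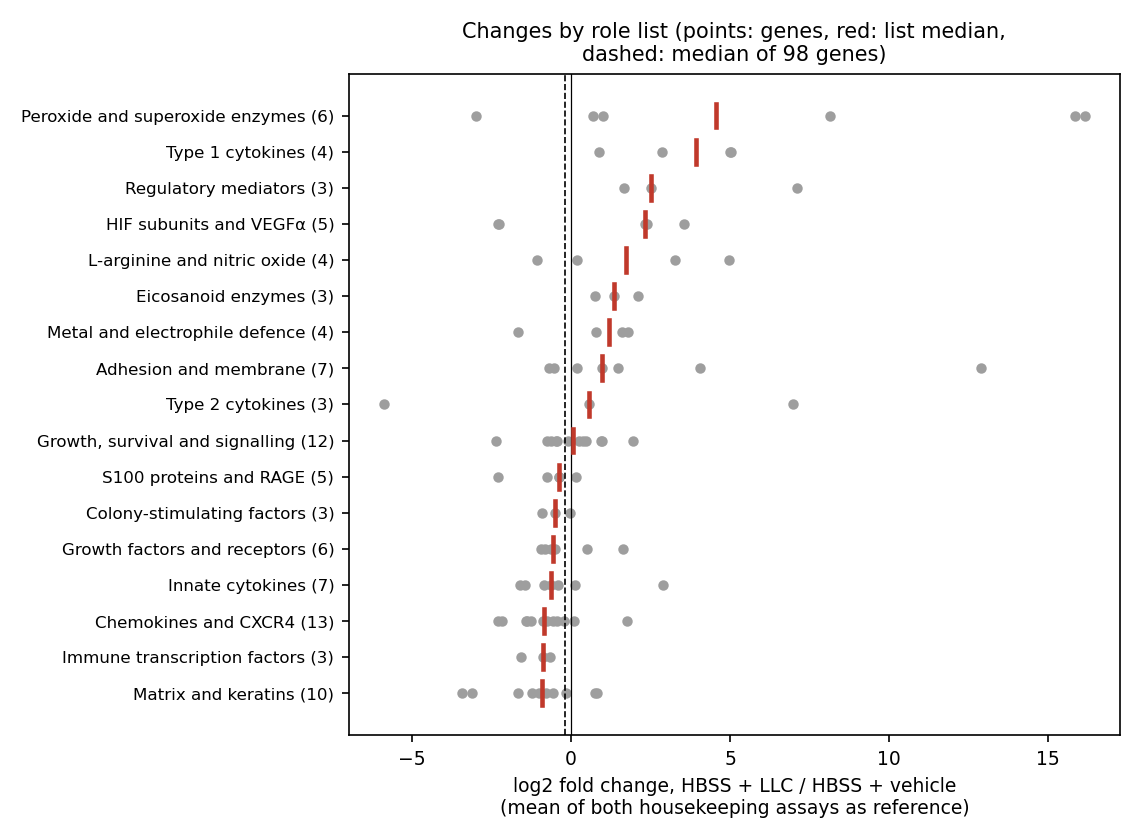
Log2 fold change (HBSS + LLC over HBSS + vehicle, mean of both housekeeping assays as reference) of each gene as a grey point, by role, with the number of genes in brackets, the median of each group as a red bar and the median of all 98 genes dashed. Medians run from 4.57 for the peroxide and superoxide enzymes to -0.90 for the matrix proteins and keratins.

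Of 12 genes of growth, survival and signalling, 10 were within 2-fold with the mean reference, beside 51 of all 98 genes. Their median was 0.07 on the log2 scale with the mean, 1.67 with the first assay alone and -1.53 with the second. *CDKN1A*, the cell cycle inhibitor p21, was 3.86-fold higher, from 20.9 to 18.6 cycles. *LCK*, a kinase of T cells, was 5.17-fold lower, from 20.8 to 22.8 cycles. Both kept their sign under every reference. *MKI67*, a marker of dividing cells, was 1.38-fold lower at 23.3 and 23.4 cycles. Of 6 growth factors and receptors, *FGF-2* passed 2-fold, at 3.14-fold higher (0.05 on the log2 scale with the second assay alone), and the other 5 lay between 0.518-fold and 1.41-fold. Among 3 immune transcription factors *IRF-4*, of lymphocytes and macrophages, was 2.97-fold lower but 0.03 on the log2 scale with the first housekeeping assay alone, and *STAT3* and *NF-κB* were within 2-fold.

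Markers of the cell types that a lung with cancers could hold are given with the mean reference first. The neutrophil and myeloid markers *S100A8*, *S100A9* and *NOX2* lay between -0.38 and 0.70 on the log2 scale. With the first housekeeping assay alone they were at 1.75, 1.22 and 2.30, all past 2-fold, and with the second alone at -1.45, -1.98 and -0.90. The endothelial markers *VCAM-1* and *CDH13* were at 0.20 and -0.69, moving to 1.80 and 0.91 with the first alone and to -1.40 and -2.29 with the second. Neither of these marker sets therefore had a direction that held under every reference. *ICAM-1*, on endothelium and epithelium, was in neither set and was 12.9 higher, past 2-fold under all 3 references. Both basal cell keratins were more than 2-fold lower and stayed below 0 under every reference. The 2 T cell genes differed in direction, with *LCK* at -2.37 and below 0 under every reference, and *IL-2* at 0.87 with the mean, 2.47 with the first alone and -0.73 with the second. Of the 5 assays for lung epithelial markers, *CDH1* was higher under every reference. *CAV1* was more than 2-fold higher with the mean but turned below 0 with the second alone. The other 3, *MUC1* and the same-gene assays *RAGE* and *AGER*, changed sign between references. The part of cell composition in the differences above was not tested.

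The 4 samples also hold a comparison of lungs with and without LLC cancers in mice given 10 µg of S100A8 at each treatment (S100A8 + LLC against S100A8 + vehicle), which shares no sample with the comparison described so far. There the housekeeping assays moved together, earlier by 0.35 and 0.55 cycles. With their mean as reference, 12 genes (12.2%) passed 2-fold upwards and 29 (29.6%) downwards. Of the 26 genes higher without S100A8, 5 were also higher with it, 19.2% of the former and 41.7% of the latter 12. These were *TXN*, *SOD1*, *IL-17β*, *HIF-1α* and *HIF-3α*. In S100A8-treated lungs *HIF-1α* needed 36.35 cycles without LLC and 34.75 with it, and *HIF-3α* 38 and 36.4. Neither stays past 2-fold there with Ct values capped at 35. Of the 21 genes lower without S100A8, 7 were also lower with it, 33.3% of the former and 24.1% of the latter 29, namely *CXCL-1*, *CXCL-5*, *IL-13*, *IRF-4*, *MT1*, *TNF-α* and *iNOS*. In all, 52 of the 98 genes had the same sign in both comparisons.

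Among the 14 genes past 2-fold upwards under all 3 references, *TXN*, *SOD1*, *IL-17β* and *HIF-1α* were more than 2-fold higher with LLC in S100A8-treated lungs too, 9 were within 2-fold there, and *CDH1* was 2.66-fold lower. *TXN* was 2288-fold higher there, from 32.7 cycles in S100A8 + vehicle to 21.1, and *SOD1* 1269-fold, from 30.55 to 19.8. *ICAM-1* was 1.75-fold lower, *PRDX1* 1.23-fold higher, *IL-10* 1.69-fold lower and *ARG1* 1.78-fold lower. Of the 4 lower genes, *IL-13* was 4.47-fold lower again, *GPX1* and *MMP-10* were 3.12-fold and at least 6.15-fold higher, and *KRT5* was within 2-fold. The *MMP-10* rise, from 38 to 34.9 cycles, lay almost wholly above 35 cycles and is lost with Ct values capped at 35. With 1 value per group, the difference between the comparisons was not tested.

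In 14 of the 18 genes past 2-fold under all 3 references, the Ct in HBSS + vehicle lay outside the range of the other 3 groups. These Ct values had no reference subtracted. In 9 of these genes, 5 higher and 4 lower, the Ct of the cancer-free lungs given S100A8 was nearer to HBSS + LLC than to HBSS + vehicle. *ICAM-1*, at 32.5 cycles in HBSS + vehicle, needed 21.03 in S100A8 + vehicle, 21.4 in S100A8 + LLC and 19.2 in HBSS + LLC. *PRDX1*, at 30.6 cycles in HBSS + vehicle, needed 24.95, 24.2 and 22.07 in the same order. *IL-10* needed 36.7 cycles in HBSS + vehicle and 30.9, 31.2 and 29.25 in the others. *ARG1* needed 31.0 cycles in HBSS + vehicle and 26.9, 27.25 and 25.7 in the others. *CDH1*, the other higher gene of this kind, needed 22.4 cycles in HBSS + vehicle and 18.8, 19.75 and 17.97 in the others. By Ct without a reference, the same held for all 4 lower genes. *IL-13* needed 27.1 cycles in HBSS + vehicle and 30.7, 32.4 and 32.6 in the others, and *KRT5* 25.9 cycles against 30.5, 29.1 and 28.7. *GPX1* needed 23.9 cycles against 26.3, 24.2 and 26.5, and *MMP-10* 33.8 cycles against 38, 34.9 and 36.8. Subtraction of the housekeeping mean, 18.295 cycles in HBSS + vehicle, 19.735 in S100A8 + vehicle and 17.955 in HBSS + LLC, changes this set. *GPX1* and *IL-13* then leave it, and *SOD1* and *IL-18* enter it. For the rest of these 9 genes, and for *SOD1* and *IL-18*, the other cancer-free group did not share the HBSS + vehicle level. The folds given above rest on that level. By Ct the cancer-free groups differed too for *TXN* (37.4 cycles in HBSS + vehicle, 32.7 in S100A8 + vehicle), *IL-17β* (30.4, 35.8) and *IL-12β* (26.0, 30.07).

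**Figure D4:**
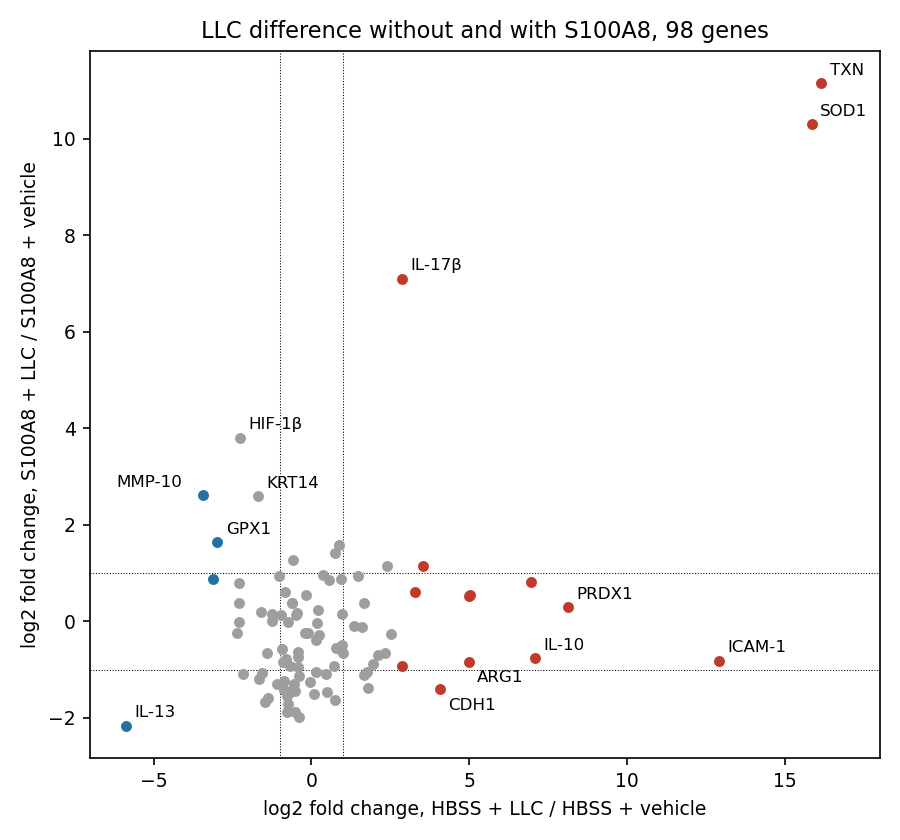
Log2 fold change of lungs with LLC cancers over lungs without, in mice given HBSS (horizontal) and S100A8 (vertical), for 98 genes with the mean of both housekeeping assays as reference; *SOD1*, *IL-4* and *HIF-3α* are lower bounds on the horizontal axis and *HIF-3α*, *IL-2* and *MMP-10* on the vertical, dotted lines mark 2-fold, and red and blue genes passed it under all 3 references without S100A8. *TXN* and *SOD1* stand far above 2-fold on both axes, whereas *ICAM-1*, *PRDX1* and *IL-10* do so on the horizontal axis only.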

How the data were processed

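Lungs of 4 groups were assayed by SYBR Green RT-qPCR for 98 genes and 2 housekeeping genes. The authors extracted RNA, reverse-transcribed 1.5 µg, set a cut off of 38 cycles, averaged 4 to 5 mice per group and deposited 1 mean Ct per assay and group, a score in cycles without normalization. The authors also deposited fold changes, a ratio to HBSS + vehicle, which served only as a key: assays are numbered, and each of the 98 was named by the gene whose 3 printed fold changes matched (tolerance 0.1%). The 2 assays left over were taken as the housekeeping genes β-actin and β2M. Columns carry sample numbers, and the same match gave their groups. The labels name a LightCycler and the paper a QuantStudio.

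The housekeeping mean was subtracted from each Ct, the LLC value was subtracted from the vehicle value to give a log2 fold change (amplification of 2 per cycle), and genes were called past 2-fold. Against a group at 38 cycles they are lower bounds. Without replicate values no SD, interval or test was possible. At high Ct few molecules are detected, so precision is lowest there. Genes were named if past 2-fold with the mean reference, if paralogs or duplicate assays, or if cell type markers, and the rest by ranges. Genes and role lists were chosen with earlier results of these data known. For 93 panel names the mouse symbol was found in RefSeq (GRCm38.p6), by name only, and 5 names were left without a symbol. Functions were tested on simulated Ct values. Alternatives were other references, a Ct cap, Ct limits, other thresholds, and amplification of 1.9 per cycle. Python 3.11.15, numpy 2.4.6 and matplotlib 3.10.9 were used.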

Additional observations from a re-analysis of the deposited data

Results flagged for a closer look

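In 8 genes the difference between lungs with and without LLC cancers passed 2-fold in opposite directions in mice given HBSS and in mice given S100A8. With 1 averaged value per group this was not tested. The difference with S100A8 minus that without was, on the log2 scale, 6.08 for *HIF-1β*, at least 6.04 for *MMP-10*, 4.62 for *GPX1* and 4.28 for *KRT14*, all lower with LLC in HBSS-treated and higher in S100A8-treated lungs. It was -5.48 for *CDH1*, -3.18 for *GSTM*, -2.82 for *CXCL-12* and -2.79 for *TGF-β1*, which went the other way. Of these 8, 5 did so relative to the first housekeeping assay alone and 5 relative to the second alone. Over all 98 genes, 14 passed 2-fold in opposite directions with the first alone and 7 with the second alone, and 3 (*CDH1*, *GPX1* and *MMP-10*) did so under all 3 references. With Ct values capped at 35, *MMP-10* no longer does so, since its S100A8 groups stood at 38 and 34.9 cycles.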

How the results depend on the processing

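Counts of calls in each direction and the panel median changed with the housekeeping reference. With the first assay alone, 61 genes were more than 2-fold higher and 4 lower, 93.8% of calls were upwards and the median log2 fold change of the panel was 1.415. With the second alone, these were 14, 62, 18.4% and -1.785. Against 26 and 21 genes, 55.3% and -0.185 with the mean, the median became -0.305 with the panel median as reference, -0.34 with Ct values capped at 35, -0.42 with Ct limited to 30 or to 35 in both groups, -0.17 with amplification of 1.9 per cycle, and 0.155 without a reference, an alternative chosen after the data were seen. Limiting Ct to 30 left 13 higher genes, and thresholds of 1.5 and 3 gave 37 and 13 lower genes. The genes past 2-fold under all 3 references, 18 in all, became 4 with Ct limited to 30, 11 with Ct limited to 35 and 26, 14 and 17 with a threshold of 1.5, a threshold of 3 and the cap. Among genes past 2-fold, with the first assay alone the sign turned to 0.58 for *COL10A1*, 0.52 for *iNOS*, 0.36 for *MMP-2*, 0.34 for *CXCR4*, 0.22 for *CXCL-1*, 0.19 for *CCL-13*, 0.14 for *TNF-α* and 0.03 for *IRF-4*. With the second alone it turned to -0.24 for *COX-2* and -0.13 for *CAV1*, and with the cap to -0.34 for *HIF-3α*. Of the genes within 2-fold, 31 changed sign with the first alone, 20 with the second alone and 1 (*IL-2*) with the cap. Single genes of high Ct moved more with the cap than the 1.60 of a reference, *IL-4* from 6.97 to 3.97, *SOD1* from 15.85 to 12.85, *TXN* from 16.15 to 13.74 and *MMP-10* from -3.42 to -1.58 on the log2 scale. No paired analysis was possible because each group has 1 averaged value, and for the same reason no replicate could be left out.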
